A study of Rattus norvegicus with 18 samples.

Results

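A set of 10 genes that mark lipid-associated and scar macrophages were followed through the livers of the BarNa rat model of non-alcoholic steatohepatitis (NASH). They were Trem2, Tyrobp, Gpnmb, Cd9, Cd63, Lgals3, Itgax, Fabp5, Ctsd and Lyz2, and were taken by symbol from a set proposed with earlier results of these data known, so that 10 of the 32623 genes in the count tables were members. All 10 had a row in the table of every rat. Whole liver tissue of 18 male Wistar rats had been profiled by RNA-Seq, 6 per group, with 1 library per rat. Control rats received standard chow and normal water for 12 weeks. NASH rats inhaled carbon tetrachloride (CCl4), a hepatotoxin, and drank phenobarbital, an inducer of the enzymes that activate it, for 6 weeks, and were then fed a high-fat, high-cholesterol diet (HFCD) for 4 weeks, 10 weeks in all. NASH-CH rats, modelling NASH with established cirrhosis, were given CCl4 and phenobarbital for 24 weeks and the HFCD in the final 16 of them. The labels describe the 10 and the 24 weeks as combined treatment and give no ages. Toxin, drug, diet and duration changed together and the control rats were of neither duration, so their contributions cannot be told apart.

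Macrophages that take up lipid and cell debris in fatty or scarred tissue switch on a set of genes for lipid sensing, lysosomal digestion and matrix handling. TREM2 is a surface receptor for lipids and lipoproteins that signals through the adaptor TYROBP (DAP12), and GPNMB is a glycoprotein of phagolysosomal membranes. In fatty and cirrhotic liver such cells gather in scars and around dying, lipid-laden hepatocytes, where they stand beside Kupffer cells, the resident macrophages of the liver. None of the 10 genes is made by these cells alone: cathepsin D and CD63 are found in almost every cell type, CD9 and galectin-3 also in bile duct epithelium, and FABP5 also in hepatocytes and endothelium.

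The members with the clearest differences were Trem2 and Gpnmb, and their promoter sequences are shown with those of Lyz2 and Cd63. The rise of Lyz2 was not detected in its sum with a second lysozyme gene, and Cd63 did not pass the test. The RefSeq table of the rat GRCr8 assembly held a promoter for 7 of the 10 genes; Tyrobp, Lgals3 and Fabp5 were not matched. Each window of 300 bases runs 5′ to 3′ on the gene's strand, from 250 bases before the annotated start of transcription to 50 bases after it. Trem2 lies on the minus strand (chr9:20151730-20152029), Gpnmb on the plus strand (chr4:79340878-79341177), Lyz2 on the minus strand (chr7:54797962-54798261) and Cd63 on the plus strand (chr7:1921894-1922193), all in GRCr8, another build than that used for the counts. Capitals mark matches to the letters searched.
Trem2: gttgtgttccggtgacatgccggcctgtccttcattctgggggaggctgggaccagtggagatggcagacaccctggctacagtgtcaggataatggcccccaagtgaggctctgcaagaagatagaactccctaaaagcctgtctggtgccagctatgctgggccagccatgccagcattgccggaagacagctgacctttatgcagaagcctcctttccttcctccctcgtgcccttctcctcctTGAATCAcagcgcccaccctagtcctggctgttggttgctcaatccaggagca
Gpnmb: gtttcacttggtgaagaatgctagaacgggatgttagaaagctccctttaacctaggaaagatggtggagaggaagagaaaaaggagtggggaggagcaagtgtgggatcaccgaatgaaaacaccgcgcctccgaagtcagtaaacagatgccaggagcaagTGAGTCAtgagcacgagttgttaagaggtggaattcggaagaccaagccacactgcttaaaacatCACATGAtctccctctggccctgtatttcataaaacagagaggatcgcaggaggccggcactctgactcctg
Lyz2: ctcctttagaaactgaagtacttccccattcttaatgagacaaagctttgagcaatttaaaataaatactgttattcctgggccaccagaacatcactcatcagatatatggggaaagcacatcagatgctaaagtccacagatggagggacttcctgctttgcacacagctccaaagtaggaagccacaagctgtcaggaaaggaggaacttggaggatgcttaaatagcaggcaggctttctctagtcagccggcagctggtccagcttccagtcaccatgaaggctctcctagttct
Cd63: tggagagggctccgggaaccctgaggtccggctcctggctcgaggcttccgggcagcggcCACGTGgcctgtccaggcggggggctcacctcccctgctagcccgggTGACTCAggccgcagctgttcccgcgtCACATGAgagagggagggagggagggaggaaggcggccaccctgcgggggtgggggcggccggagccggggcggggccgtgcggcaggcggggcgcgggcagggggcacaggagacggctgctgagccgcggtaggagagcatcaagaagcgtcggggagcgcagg

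The letters searched on both strands were CACGTG (the E-box core bound by TFEB and other lysosomal regulators), TCATGTG (the M-box of MITF and TFE3), TGANTCA (the AP-1 site) and GAGGAAGT (a PU.1 site); no matches in these windows shared bases. TGANTCA stood in 4 of the 7 promoters, Trem2, Gpnmb, Cd63 and Itgax, and in 7.33% of all 33469 promoters in the table. In Trem2 the match TGAATCA began 3 bases before the start, and in Gpnmb TGAGTCA began 87 bases before it. TCATGTG, read as CACATGA on the printed strand, was found in Gpnmb and Cd63 and in 3.56% of all promoters. CACGTG was found in Cd63 and Ctsd and in 6.42% of all promoters, and GAGGAAGT in 2.42% of all promoters and in 0 of the 7. The Lyz2 window held none of the 4. These are matches of letters and not binding sites. Gpnmb and Cd63 both carried an M-box match and an AP-1 match, and of this pair only Gpnmb passed the test in any comparison. Whether matches go with expression was not tested.

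Totals of expected counts, the fractional read counts that RSEM assigns to genes, ran from 19498534 to 27174015 in control rats, from 20827770 to 29491947 in NASH rats and from 44680344 to 60117822 in NASH-CH rats. The deeper NASH-CH libraries did not overlap the others, so depth cannot be told apart from condition by design; thinning the NASH-CH counts to 24731776 per rat left the same number of members called in each comparison. Levels below are TMM-scaled CPM, read counts scaled to the size of each library, which are not divided by gene length and so are compared between groups and not between genes. Differences are limma-voom log2 fold changes with Benjamini-Hochberg adjusted p-values over the 12904 genes tested, and a gene was called at an adjusted p under 0.05. In whole liver, more macrophages and more RNA per macrophage cannot be told apart.

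In comparison to control animals, NASH-CH rats had more Trem2, Gpnmb, Lgals3 and Lyz2 mRNA and less Fabp5 mRNA. Of the 10 members, 4 rose (8.38% of all genes tested were higher), 1 fell (8.60% of all genes were lower) and 5 did not pass the test. In the NASH group 1 member rose, Gpnmb (1.58% of all genes were higher), and 1 fell, Fabp5 (1.54% were lower). Between the 2 models, Trem2, Gpnmb and Lyz2 were higher in NASH-CH rats (1.81% of all genes were higher) and 0 members were lower by limma-voom, edgeR or DESeq2 or at an unadjusted p under 0.05 (2.39% of all genes were lower). The median log2 fold change of the members was 0.084 in NASH and 0.87 in NASH-CH rats against control, beside 0.0072 and 0.013 over all genes tested. The NASH-CH call for Lyz2 was lost when its counts were added to those of its near copy Lyc2, and Trem2 passed the filter on low counts only through the NASH-CH group, as described with each gene. The shares over all genes rest on counts of calls that move with single rats: in NASH against control 403 genes were called, and 128 without control rat 3 to 982 without control rat 6, in NASH-CH against control 2192 (1519 to 2409), and in NASH-CH against NASH 542 (346 to 591). All 3 comparisons draw on the same 18 rats, and both models are set against the same controls.

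**Figure D1:**
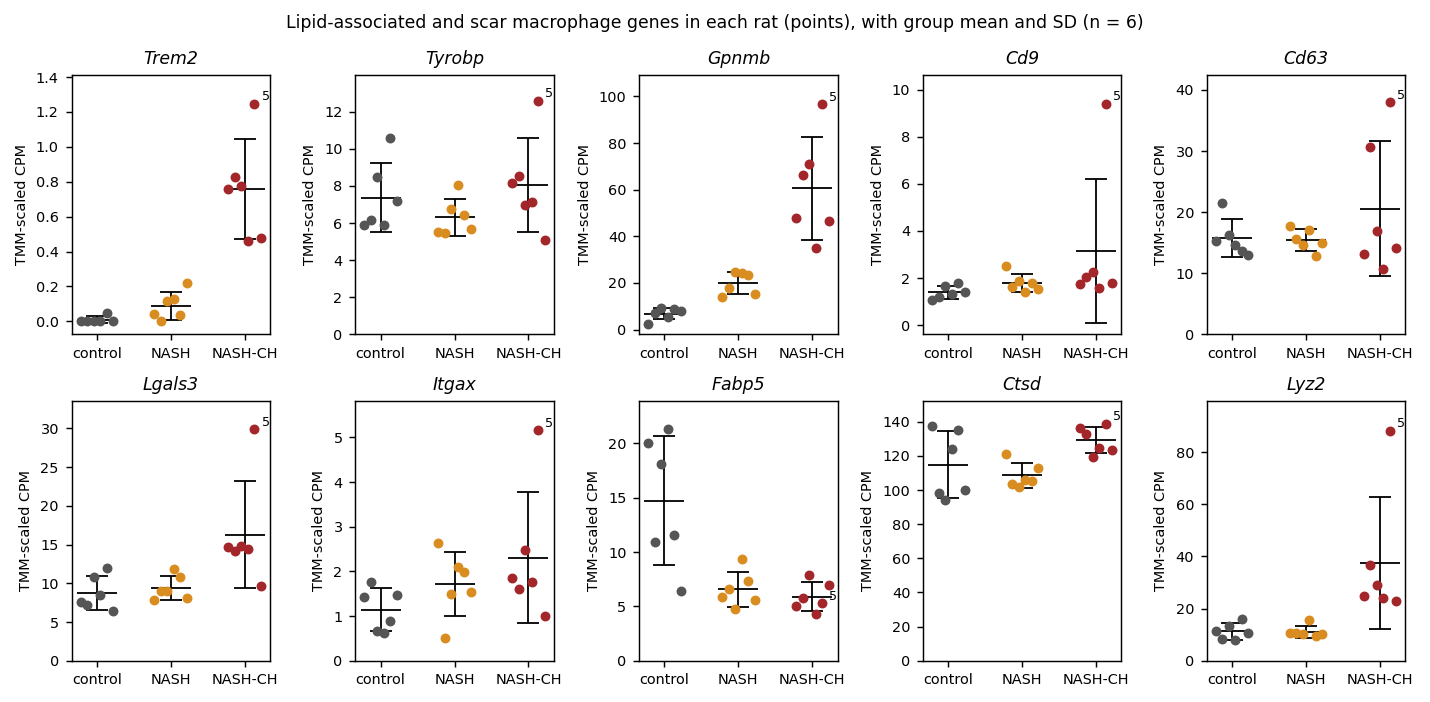
TMM-scaled CPM of each of the 10 genes (vertical axes, linear) in control, NASH and NASH-CH rats. Points are single rats, bars the group mean and SD (n = 6), and the digit marks NASH-CH rat 5; Gpnmb rises from 2.62 to 9.19 CPM in control rats to 35.1 to 96.6 CPM in NASH-CH rats without overlap, while Fabp5 is lower in both models with overlapping groups.

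Trem2 (ENSRNOG00000013578), the lipid receptor, was almost undetected outside the NASH-CH group. Among control rats 5 of 6 had 0 counts and rat 5 had 1 count, which is 0.0496 CPM; a count of 0 at these depths allows a level of up to 0.108 to 0.187 CPM (3 counts per library, counting error only). NASH rats had 0, 0.0801 and 0.221 CPM as the lowest, median and highest value, 15 counts in all, and NASH-CH rats had 0.459, 0.767 and 1.25 CPM, 264 counts in all. Every NASH-CH rat was above every NASH and control rat, whereas the control and NASH groups overlapped. The summed counts gave a ratio of 107 for NASH-CH over control, with an exact 95% interval of 19.0 to 4236 that covers counting error only, and of 8.31 (4.95 to 15.1) for NASH-CH over NASH. The fitted log2 difference was 4.78 (SE 0.53, adjusted p = 6.53e-06) for NASH-CH against control and 3.12 (SE 0.51, adjusted p = 0.000792) for NASH-CH against NASH, but its size against so empty a control group depends on the prior count. In NASH against control it was 1.65 (SE 0.69, adjusted p = 0.175), which was not called by limma-voom and was called by DESeq2 (adjusted p = 0.0333). The filter required a level of 0.369 CPM, which 0 control, 0 NASH and 6 NASH-CH rats reached.

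Tyrobp (ENSRNOG00000020845), the adaptor through which TREM2 and several other myeloid receptors signal, was not called in any comparison. Control rats had 5.91, 6.69 and 10.6 CPM as the lowest, median and highest value, NASH rats 5.48, 6.05 and 8.05, and NASH-CH rats 5.06, 7.63 and 12.6. All 3 groups overlapped, and the NASH-CH rats covered the widest range. The log2 difference was -0.20 (adjusted p = 0.617) in NASH and 0.12 (95% interval -0.28 to 0.51, adjusted p = 0.712) in NASH-CH rats against control. The latter was -0.036 without NASH-CH rat 5.

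Gpnmb (ENSRNOG00000008816) was the member with a stepwise difference over the 3 groups. Control rats had 2.62, 7.68 and 9.19 CPM as the lowest, median and highest value, NASH rats 14.0, 20.6 and 24.7, and NASH-CH rats 35.1, 57.2 and 96.6. No group overlapped another, and the means were 6.90 ± 2.50, 19.9 ± 4.71 and 60.6 ± 22.1 CPM (SD, n = 6). NASH against control gave a log2 difference of 1.57 (SE 0.27, adjusted p = 0.00667) and NASH-CH against control one of 3.11 (SE 0.28, adjusted p = 5.32e-07). The contrast between the 2 models was 1.54 (SE 0.25, adjusted p = 0.000792). With 1 rat left out at a time these ranged from 1.36 to 1.66 in NASH and from 2.89 to 3.26 in NASH-CH rats against control, and all calls held. The count of members whose rats did not overlap was 1 in NASH (1.77% of all genes tested were higher without overlap), 3 in NASH-CH against control (3.64%) and 3 in NASH-CH against NASH (1.36%). Both counts of 3 include Trem2, which passed the filter on low counts only through the NASH-CH group, so its separation was favoured in advance. They also include Lyz2, whose groups overlapped once its counts were summed with those of Lyc2.

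**Figure D2:**
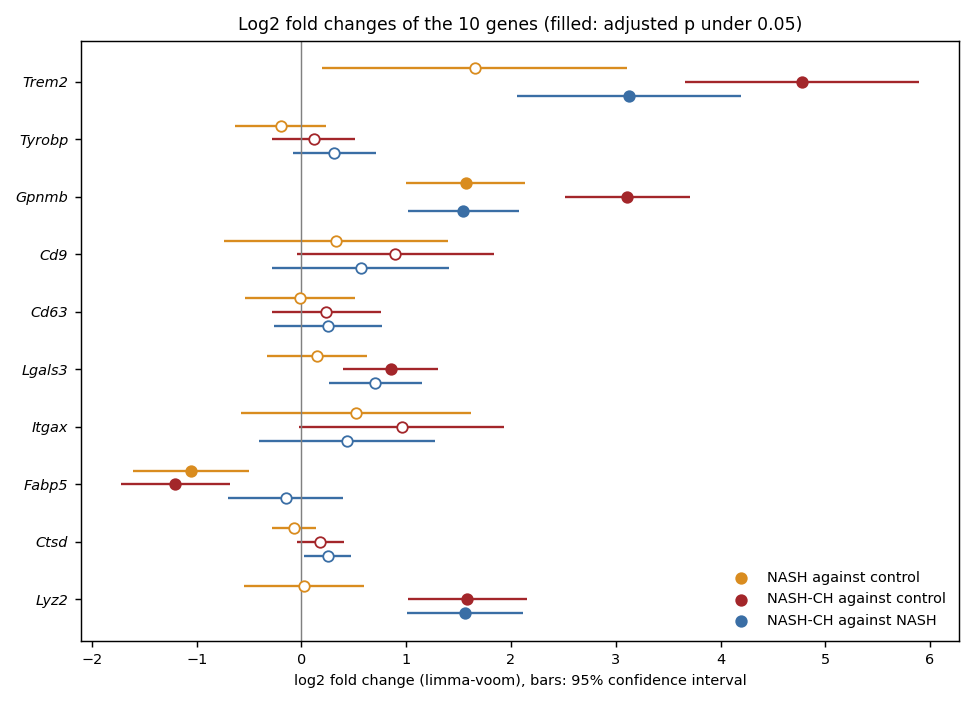
Log2 fold change of each gene (horizontal axis, limma-voom) in the 3 comparisons, with 95% confidence intervals; filled points passed an adjusted p under 0.05. Gpnmb is filled in all 3 comparisons, Trem2 and Lyz2 in those with NASH-CH, and Fabp5 lies to the left of 0 at -1.05 and -1.20 against control.

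The tetraspanins Cd9 and Cd63, which organise membrane receptors and mark exosomes and late endosomes, did not pass the limma-voom test in any comparison; edgeR called Cd9 in NASH-CH against control (1.17, adjusted p = 0.0409). Cd9 (ENSRNOG00000019556) had 1.06, 1.36 and 1.79 CPM as the lowest, median and highest control value, 1.43, 1.70 and 2.50 in NASH rats and 1.59, 1.91 and 9.39 in NASH-CH rats. NASH-CH rat 5 alone had the value of 9.39, and the other 5 rats of its group reached at most 2.27 CPM. The log2 difference of 0.89 in NASH-CH rats (95% interval -0.047 to 1.84, adjusted p = 0.181) was 0.43 without that rat. Cd63 (ENSRNOG00000007650) had 13.0, 15 and 21.6 CPM in control rats, 12.8, 15.4 and 17.7 in NASH rats and 10.8, 15.5 and 37.9 in NASH-CH rats. The medians of the 3 groups were close, with a log2 difference of 0.24 (95% interval -0.28 to 0.75, adjusted p = 0.537) in NASH-CH against control that was 0.036 without NASH-CH rat 5. Of the other tetraspanins, 18 of 20 listed were tested, with a median of 0.052 in NASH-CH against control. In that comparison 1 rose (8.38% of all genes tested were higher), the leukocyte tetraspanin Cd53 (0.71, SE 0.23, adjusted p = 0.0408). There 0 fell (8.60% of all genes were lower), where 2 were lower at an unadjusted p under 0.05 and 0 by edgeR and 1 by DESeq2 were called. The call of Cd53 was lost without control rat 1, 2, 3, 4 or 6 or NASH-CH rat 1, 2 or 3 (adjusted p from 0.0265 to 0.101 with 1 rat left out) and with the 2 groups fitted alone.

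Lgals3 (ENSRNOG00000010645), which encodes galectin-3, a carbohydrate-binding lectin of macrophages and scar tissue, was higher in NASH-CH rats by a smaller step. Control rats had 6.45, 7.99 and 12 CPM as the lowest, median and highest value, NASH rats 7.84, 9.05 and 11.8, and NASH-CH rats 9.66, 14.6 and 29.9. The groups overlapped through 1 NASH-CH rat, and the other 5 NASH-CH rats were above every control and NASH rat. The log2 difference was 0.85 (SE 0.22, adjusted p = 0.0124) for NASH-CH against control and 0.15 (adjusted p = 0.756) for NASH against control. NASH-CH against NASH gave 0.71 (SE 0.21, adjusted p = 0.0658), which was not called here and was called by edgeR (adjusted p = 0.0414) and DESeq2 (adjusted p = 0.0117). Without NASH-CH rat 5 or any other single rat the call against control held, with log2 differences from 0.66 to 0.98. Of 8 other galectins, 4 were tested; Lgals1, encoding galectin-1, rose in NASH-CH against control (1.18, SE 0.30, adjusted p = 0.0126), and Lgals9 fell in NASH (-0.85, SE 0.16, adjusted p = 0.0110).

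Itgax (ENSRNOG00000036703), the integrin chain CD11c of dendritic cells and recruited macrophages, had 0.620, 1.16 and 1.77 CPM as the lowest, median and highest control value, 0.514, 1.77 and 2.63 in NASH rats and 0.994, 1.82 and 5.16 in NASH-CH rats. All 3 groups overlapped. Itgax differed on the log2 scale by 0.52 (adjusted p = 0.604) in NASH and 0.96 (95% interval -0.019 to 1.94, adjusted p = 0.167) in NASH-CH rats against control, and the latter was 0.62 without NASH-CH rat 5. DESeq2 called it (1.02, adjusted p = 0.0486). Its counts were fractional in 4 of 18 rats, so that some reads were shared with other genes. Of the other beta2 integrins, Itgb2, Itgal and Itgad were tested, and 0 were called in any comparison by limma-voom, edgeR or DESeq2; at an unadjusted p under 0.05, 1 was lower in NASH against control and 2 were higher in NASH-CH against NASH. Over the 3 comparisons limma-voom called 1.58% to 8.38% of all genes tested higher and 1.54% to 8.60% lower. Itgam had no row in the tables used.

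Fabp5 (ENSRNOG00000049075), a cytosolic carrier of fatty acids, was the member that fell. Control rats had 6.38, 14.8 and 21.3 CPM as the lowest, median and highest value, NASH rats 4.78, 6.22 and 9.35, and NASH-CH rats 4.30, 5.55 and 7.91. Control rat 6, with 6.38 CPM, lay within both models, and the other 5 control rats were above every NASH and NASH-CH rat. Fabp5 differed on the log2 scale by -1.20 (SE 0.25, adjusted p = 0.00306) for NASH-CH against control and -1.05 (SE 0.26, adjusted p = 0.0360) for NASH against control. The models differed by -0.15 (95% interval -0.71 to 0.40, adjusted p = 0.824). The call in NASH was lost in 9 of 18 fits that each left out 1 rat (control rat 1, 3, 4 or 5, or NASH rat 1, 2, 3, 5 or 6), with adjusted p from 0.00329 to 0.102 over the 18, with library size as the only scaling (adjusted p = 0.0510) and without a filter on low counts (adjusted p = 0.0529), whereas that in NASH-CH held with every rat left out.

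The other fatty acid binding proteins did not move as one. Of 6 listed, 5 were tested, and in NASH-CH against control 1 rose (8.38% of all genes tested were higher) and 2 fell (8.60% were lower). Fabp4, the carrier of adipocytes and lipid-laden macrophages, had 1.75 to 3.74 CPM in control, 1.62 to 8.22 CPM in NASH and 3.65 to 14.7 CPM in NASH-CH rats, a log2 difference of 1.47 (SE 0.39, adjusted p = 0.0156) for NASH-CH against control. Fabp1, the abundant liver form, had 1585 to 2121 CPM in control and 334 to 1419 CPM in NASH-CH rats, a difference of -0.91 (SE 0.26, adjusted p = 0.0230). Fabp7, best known from brain and present in rodent liver, fell by 1.44 on the log2 scale (SE 0.43, adjusted p = 0.0290), a call lost without control rat 2 or 6 or NASH-CH rat 5 or 6 (adjusted p from 0.0215 to 0.0726). In NASH rats 0 of the 5 were called by limma-voom, with 2 at an unadjusted p under 0.05, 1 by edgeR and 3 by DESeq2. By limma-voom 1.58% of all genes tested were higher and 1.54% lower in NASH against control.

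Ctsd (ENSRNOG00000020206), the aspartic protease cathepsin D of lysosomes, had 94.3, 112 and 138 CPM as the lowest, median and highest control value, 102, 106 and 121 in NASH rats and 120, 129 and 139 in NASH-CH rats. The control rats spanned nearly the whole range of the other groups. The log2 difference was -0.073 (adjusted p = 0.723) in NASH and 0.18 (95% interval -0.044 to 0.40, adjusted p = 0.259) in NASH-CH rats against control. With library size as the only scaling the latter was 0.45 (adjusted p = 0.00771), a setting under which the median of all genes moved to 0.27. Lysosome genes as a list showed small differences. All 33 were tested, and in NASH-CH against control 4 rose (8.38% of all genes tested were higher) and 3 fell (8.60% were lower), with a median of 0.061. Tpp1 (0.38, SE 0.091, adjusted p = 0.00964) and Lamp1 (0.33, SE 0.087, adjusted p = 0.0161), a peptidase and a membrane protein of lysosomes, rose, and the cathepsin gene Ctsz fell by 0.56 (SE 0.14, adjusted p = 0.0111). The split of these calls depended on the scaling, since with library size alone 13 rose and 0 fell.

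Lyz2 (ENSRNOG00000005825), the lysozyme of macrophages and neutrophils, had 7.89, 11 and 16.1 CPM as the lowest, median and highest control value, 9.55, 10.4 and 15.8 in NASH rats and 22.8, 26.9 and 88.2 in NASH-CH rats. Every NASH-CH rat was above every rat of the other groups. The log2 difference was 1.58 (SE 0.27, adjusted p = 0.000659) for NASH-CH against control, 1.56 (SE 0.27, adjusted p = 0.00116) for NASH-CH against NASH and 0.023 (adjusted p = 0.972) for NASH against control. Its counts were fractional in 17 of 18 rats, so that some reads were shared with other genes, which the counts do not name. A second lysozyme gene, Lyc2 (ENSRNOG00000034139), had 20.4, 29.8 and 33.5 CPM in control rats, 1.54, 23.6 and 33.0 in NASH rats and 13.7, 17.6 and 26.4 in NASH-CH rats, and was not called in any comparison. Its median was lowest in the group where Lyz2 was highest.

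The sum of both lysozymes was examined after their values had been seen. It was 31.2, 41.3 and 45.7 CPM as the lowest, median and highest control value, 11.1, 34.1 and 43.5 CPM in NASH rats and 37.6, 43.9 and 115 CPM in NASH-CH rats, and the 3 groups overlapped. The log2 difference of the sum was 0.36 (SE 0.30, adjusted p = 0.429) for NASH-CH against control and 0.84 (SE 0.30, adjusted p = 0.129) for NASH-CH against NASH, neither of which was called, and -0.48 (adjusted p = 0.334) for NASH against control. The rise of Lyz2 therefore held for the counts assigned to that gene and was not detected in the counts of both genes together. Whether Lyz2 and Lyc2 shared reads, and how well such reads were divided, was not tested.

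**Figure D3:**
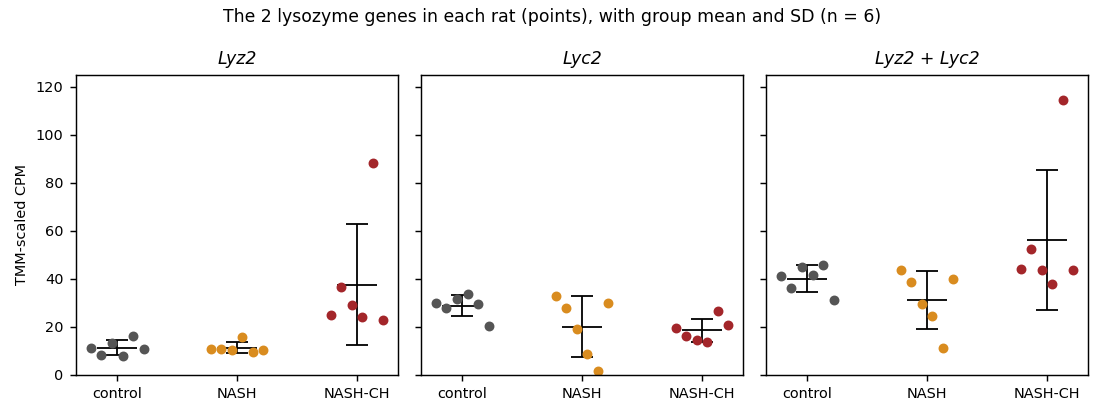
TMM-scaled CPM (vertical axis, linear) of Lyz2, of Lyc2 and of their sum in control, NASH and NASH-CH rats, with points for single rats and bars for the group mean and SD (n = 6). Lyz2 is separate in NASH-CH rats at 22.8 to 88.2 CPM, but in the sum 5 of 6 NASH-CH rats lie near the control range of 31.2 to 45.7 CPM.

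Other genes of the same macrophage states included several with large differences. Of 26 listed, 23 were tested, and in NASH-CH against control 8 rose (8.38% of all genes tested were higher) and 1 fell (8.60% were lower), with a median of 0.37. Mmp12, the macrophage elastase, had 0.0386, 0.189 and 0.252 CPM as the lowest, median and highest control value, 1.59, 2.54 and 5.45 in NASH rats and 4.41, 5.89 and 18.9 in NASH-CH rats. Its NASH and NASH-CH rats were all above every control rat, with log2 differences of 4.02 (SE 0.89, adjusted p = 0.0221) and 5.42 (SE 0.86, adjusted p = 0.000337) against control, where the control rats held 22 counts in all. Every control rat was under the 0.369 CPM that the filter on low counts required. Mmp12 therefore passed the filter only through the NASH and NASH-CH groups, and its separation from control was favoured in advance. Pla2g7, a phospholipase carried by lipoproteins and made by macrophages, had 0.0771 to 0.496 CPM in control, 0.600 to 1.68 CPM in NASH and 1.62 to 4.43 CPM in NASH-CH rats, a difference of 3.22 (SE 0.50, adjusted p = 0.000245) for NASH-CH against control. Lpl, lipoprotein lipase, had 5.66 to 7.85 CPM in control, 16.7 to 27.6 CPM in NASH and 15.2 to 108 CPM in NASH-CH rats, with differences of 1.58 (SE 0.36, adjusted p = 0.0260) and 2.10 (SE 0.37, adjusted p = 0.000811).

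In NASH against control Mmp12 and Lpl were the 2 of these 23 genes that limma-voom called higher (1.58% of all genes tested were higher), where edgeR called 3 and DESeq2 4, with 4 higher at an unadjusted p under 0.05. The call of Mmp12 was lost without control rat 1, 3, 4 or 5 (adjusted p from 0.00123 to 0.0586 with 1 rat left out), and that of Lpl without the same control rats or without NASH rat 3 or 4 (0.00163 to 0.0641), so that 0 to 4 genes of the list were called. In NASH-CH against control the calls of Mmp12, Pla2g7 and Lpl held with every rat left out. In NASH-CH against NASH 5 rose (1.81% of all genes tested were higher) and 0 fell by limma-voom (2.39% were lower), 0 also by edgeR and DESeq2, with 1 lower at an unadjusted p under 0.05. The 5 were Spp1 (osteopontin), Lgals1, Mmp12, Pld3 and Pla2g7, named because they were the whole count, and their log2 differences ran from 0.41 to 1.61. Over the whole list, 3 genes were called without NASH rat 6, with library size only, with at least 10 counts in every rat or with the 2 groups fitted alone. These 3 were not always among the 5 named. The calls of Spp1, Mmp12 and Pla2g7 were each lost without NASH rat 6 and with the 2 groups fitted alone. The call of Pla2g7 was also lost without NASH rat 5. Mmp12 lost its call in 6 of the 18 fits that left out 1 rat, also without NASH rat 1, 2, 3 or 5 or NASH-CH rat 3. It was lost too when the small non-coding RNA genes were removed. The calls of Mmp12 and Pld3 were lost with library size only. Spp1 was not called against control. Atp6v0d2, a proton pump subunit of phagocytes and osteoclasts, was not tested because of its low counts, and was looked at after its values had been seen. It had 1, 7 and 195 counts summed over the control, NASH and NASH-CH rats, and was called without the filter (adjusted p = 4.78e-07, NASH-CH against control).

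The list of TREM2 and TYROBP signalling genes also held receptors that couple to the same kinases and proteases that shed TREM2 from the surface. Of 18 listed, 13 were tested, and 3 rose in NASH-CH against control (8.38% of all genes tested were higher), with a median of 0.27, where 0 fell by limma-voom (8.60% of all genes were lower), edgeR or DESeq2 and 1 was lower at an unadjusted p under 0.05. In NASH 0 were called by any of these tools, with 3 higher at an unadjusted p under 0.05. There 1.58% of all genes tested were higher and 1.54% lower by limma-voom. Clec7a, the separate receptor Dectin-1, which engages SYK without TYROBP, had 0.579 to 1.72 CPM in control, 0.985 to 2.81 CPM in NASH and 2.54 to 10.2 CPM in NASH-CH rats, a log2 difference of 2.07 (SE 0.44, adjusted p = 0.00391). Inpp5d, the inositol phosphatase SHIP1 that restrains this pathway, rose by 0.68 (SE 0.15, adjusted p = 0.00515) and the adaptor Pik3ap1 by 0.42 (SE 0.14, adjusted p = 0.0433). The call of Pik3ap1 was lost in 11 of the 18 fits that left out 1 rat (adjusted p from 0.0110 to 0.108), which kept it only without control rat 2 or 6, NASH rat 2, 5 or 6 or NASH-CH rat 1 or 3, and those of Clec7a and Inpp5d held in all 18. Syk, the kinase itself, had 2.85 to 4.46 CPM in control and 3.85 to 6.77 CPM in NASH-CH rats and was not called.

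**Figure D4:**
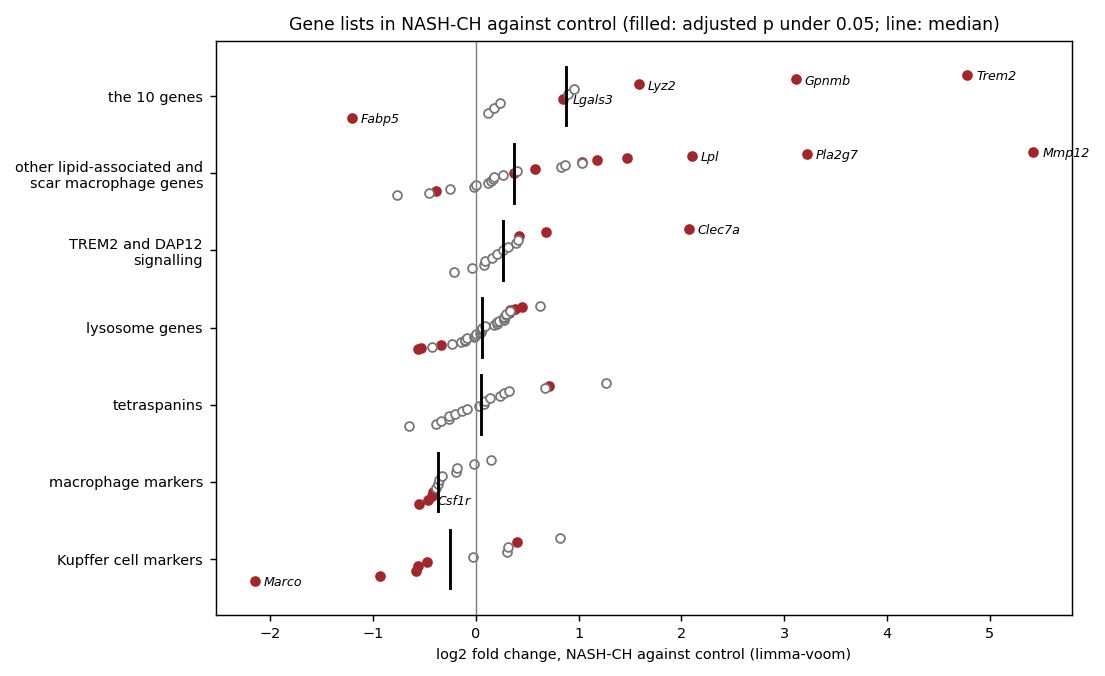
Log2 fold change of every tested gene in NASH-CH against control (horizontal axis) for the 10 genes and 6 other lists; filled points passed an adjusted p under 0.05 and the vertical bar is the list's median. Medians are 0.87 for the 10 genes, 0.37 for the other genes of these macrophage states and -0.37 for general macrophage markers.

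The mRNA of general macrophage markers did not rise with Trem2 and Gpnmb. By staining for the proteins, the study counted more CD68- and CD163-positive macrophages in NASH-CH than in control livers. That is a count of cells and not of mRNA. All 12 markers were tested, with a median of -0.37 in NASH-CH against control. In that comparison 0 rose by limma-voom (8.38% of all genes tested were higher), edgeR or DESeq2 or at an unadjusted p under 0.05. There 4 fell (8.60% of all genes were lower), among them Csf1r, the receptor for the macrophage growth factor (-0.46, SE 0.11, adjusted p = 0.00635), and Msr1, a scavenger receptor (-0.55, SE 0.15, adjusted p = 0.0172). With library size as the only scaling none of these calls held. Their summed level was 354 to 483 CPM in control, 343 to 424 CPM in NASH and 271 to 372 CPM in NASH-CH rats. Of the 10 Kupffer cell markers, 9 were tested, since Timd4 had too few counts, and Slc40a1 had 2 rows. Of these 10 rows 1 rose (8.38% of all genes tested were higher) and 5 fell (8.60% were lower) in NASH-CH against control. Marco, a scavenger receptor of resident macrophages, fell in both models, from 12.7 to 43.2 CPM in control rats to 2.36 to 9.56 CPM in NASH and 1.10 to 14.6 CPM in NASH-CH rats, with log2 differences of -2.78 (SE 0.58, adjusted p = 0.0168) and -2.15 (SE 0.48, adjusted p = 0.00568). Cd5l, made by Kupffer cells, fell by 0.93 (SE 0.21, adjusted p = 0.00534) and the haemoglobin receptor gene Cd163 by 0.48 (SE 0.14, adjusted p = 0.0304) in NASH-CH rats, the latter call being lost without control rat 3 or 5 or NASH-CH rat 2, 5 or 6 (adjusted p from 0.0128 to 0.0729). These counts rested on single rats: in place of the 6 Kupffer cell calls, 2 were made without control rat 3, NASH-CH rat 5 or NASH-CH rat 6 and 3 without control rat 1, 4 or 5, and in place of the 4 macrophage calls 2 were made without control rat 3 or 5 or NASH-CH rat 3 or 6.

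Set against the summed macrophage markers of the same rat, Gpnmb and Trem2 were higher in every NASH-CH rat than in every control and NASH rat. Gpnmb had 0.720, 1.95 and 2.14 CPM per 100 CPM of macrophage markers as the lowest, median and highest control value, 3.77, 5.39 and 6.62 in NASH rats and 9.59, 18.7 and 34.1 in NASH-CH rats. Trem2 reached at most 0.0103 in control and 0.0646 in NASH rats and was 0.125 to 0.440 in NASH-CH rats. It passed the filter on low counts only through the NASH-CH group, so this separation was favoured in advance. Each control rat held 0 to 1 Trem2 counts and each NASH rat 0 to 7. On the same scale Lgals3 was 1.71 to 2.51 in control and 3.56 to 10.6 in NASH-CH rats, which no longer overlapped. Cd9, which limma-voom did not call, no longer overlapped either, at 0.291 to 0.385 and 0.435 to 3.31. Tyrobp was 1.42 to 2.18 and 1.87 to 4.44. The summed markers had a lower mean in NASH-CH rats (319 CPM) than in control rats (404 CPM), which raises the ratios of all members there. These ratios describe levels and were not tested. They do not measure the number of macrophages, since 4 of the 12 markers in the sum were themselves called lower in NASH-CH rats.

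Markers of other cells that can carry these genes were counted in the same way. Monocyte markers had 4 tested genes, of which 1 rose in NASH-CH against control (8.38% of all genes tested were higher), Vcan, encoding versican (1.80, SE 0.31, adjusted p = 0.000720). Dendritic cell markers (6 tested) and T, NK and B cell markers (4 tested) had 0 calls in any comparison by limma-voom, edgeR or DESeq2, and 0 at an unadjusted p under 0.05. Over all genes tested, limma-voom called 1.58% higher and 1.54% lower in NASH against control. These shares were 8.38% and 8.60% in NASH-CH against control and 1.81% and 2.39% in NASH-CH against NASH. Neutrophils also make lysozyme. Of their 8 markers, 1 was tested and not called, Ltf was at 0 in every rat, and the summed level was 0.466 to 3.27 CPM in control, 0.490 to 1.45 CPM in NASH and 0.791 to 6.64 CPM in NASH-CH rats. By staining for the protein MPO, the study counted more infiltrated neutrophils in NASH-CH than in control livers. Bile duct epithelium carries Cd9 and Lgals3; its summed markers were 11.5 to 14.7 CPM in control, 8.30 to 17.2 CPM in NASH and 13.1 to 55.5 CPM in NASH-CH rats, with 0 of 5 tested markers called by limma-voom in NASH-CH against control, 1 by edgeR, 1 by DESeq2 and 2 at an unadjusted p under 0.05. Their part in the differences of Lyz2, Cd9 and Lgals3 was not tested. Of the other lists, NASH-CH against control gave 1 of 8 hepatocyte markers higher and 3 lower, 2 of 7 stellate and myofibroblast markers higher and 1 lower, and 1 of 7 endothelial markers higher. Beside these, 8.38% of all genes tested were higher and 8.60% lower. Hepatocyte markers summed to between 55538 and 153685 CPM over the rats, as whole liver would give.

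NASH-CH rat 5 stood apart within its group. It had the highest value of the NASH-CH rats for 9 of the 10 members, the exception being Fabp5, for which rat 3 was highest. It also had the highest summed neutrophil, lymphocyte and cholangiocyte markers of its group, at 6.64, 20.7 and 55.5 CPM, and the lowest hepatocyte markers, at 55538 CPM. Its macrophage markers, at 283 CPM, were not high within the group. Without this rat the other 5 had 0.459 to 0.827 CPM of Trem2, 35.1 to 71.2 CPM of Gpnmb, 9.66 to 14.9 CPM of Lgals3 and 22.8 to 36.6 CPM of Lyz2, and the 5 calls of members in NASH-CH against control held.

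Within groups the members did not vary as a single block. Over the 45 pairs, Pearson's r of log2 CPM across the 18 rats, with each group's mean removed, had a median of 0.38 and ran from -0.43 to 0.88; without NASH-CH rat 5 the median was 0.16. Tyrobp, Lgals3 and Lyz2 varied together most closely, with r of 0.88 for Tyrobp and Lgals3 and 0.85 for Tyrobp and Lyz2, which were 0.82 and 0.78 without that rat. Among the members, Trem2 had its highest r with Tyrobp, 0.58 with NASH-CH rat 5 and 0.49 without it. For Cd9 and Lyz2, by contrast, r was 0.80 with the rat and 0.30 without it, and Gpnmb and Ctsd had the lowest r, -0.43 and -0.56. These correlations are descriptions over rats that share the scaling of their libraries, and no test was made.

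**Figure D5:**
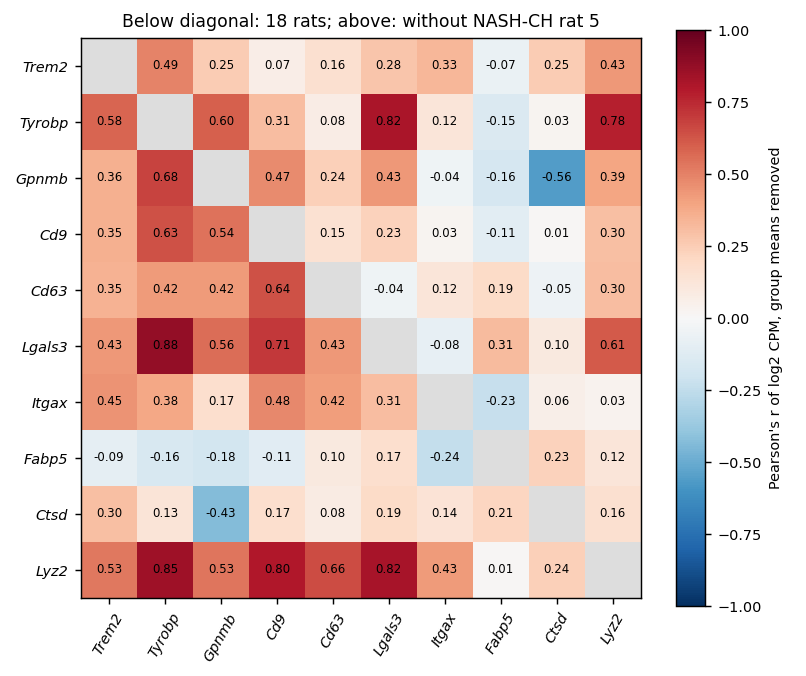
Pearson's r of log2 CPM between each pair of the 10 genes after the group means were removed, in all 18 rats below the diagonal and without NASH-CH rat 5 above it; red is positive and blue negative. The darkest red cells join Tyrobp, Lgals3 and Lyz2, and most cells are paler above the diagonal, where the median is 0.16 against 0.38.

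Among the other 12894 genes tested, those whose values were most like Trem2 over the 18 rats, with group means removed, were LOC103690137 (r = 0.80), Renbp (0.77), Apba1 (0.77), Dscr3 (0.75) and the leukocyte tetraspanin Cd37 (0.75). For Gpnmb they were Ccdc88c (0.88), Sgcb (0.86), Ap3s1 (0.86), Esco1 (0.85) and Ctdspl2 (0.84). The lists had no gene in common and held no other member. Each control and NASH rat had 0 to 7 Trem2 counts, so that single counts moved its values in those groups.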

How the data were processed

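Liver RNA of 18 rats was sequenced as 1 stranded library each. The authors trimmed adapters, aligned to Rnor_6.0 with STAR in 2-pass mode and quantified with RSEM on Ensembl release 95; tool versions are not given in the sources used here. They deposited RSEM expected counts (estimated counts, not normalized) for 32623 genes, and totals per rat ran from 19498534 to 60117822. The labels name an RNAqueous-Micro kit and the methods a miRNeasy kit. Groups came from the labels.

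Expected counts were rounded to whole numbers and scaled by TMM (edgeR 4.0.16). Genes kept by filterByExpr (minimum count 10; 12904 genes) were tested with limma 3.58.1 voom in R 4.3.3, in 1 fit of all rats, with Benjamini-Hochberg adjustment and a threshold of 0.05. Alternatives were DESeq2 1.42.0 and the quasi-likelihood test of edgeR, other scalings and filters, the 2 groups alone, quality weights, a replicate block, thinned NASH-CH counts, removal of small non-coding RNA genes and leaving out each rat; the lysozyme sum was added after seeing the data. The limma-voom, edgeR and DESeq2 fits were tested on simulated data. The members and gene lists were chosen with earlier results of these data known. From each list up to 3 tested genes with the largest absolute moderated t in NASH-CH against control were named, with the 5 genes most correlated with Trem2 and with Gpnmb; others named are said to be chosen after their values were seen, or complete a count of 5 or fewer, except Syk, Lyc2, Ltf, Timd4 and Slc40a1, which were also chosen afterwards. Promoters came from RefSeq (GRCr8) and figures from matplotlib 3.10.9. Counting intervals cover counting error only. No rat was left out.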

Additional observations from a re-analysis of the deposited data

Results flagged for a closer look

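Values far from the rest of their group were sought in 30 sets, 10 genes in each of 3 groups of 6 rats, with Dixon's criterion at 95%, by which chance alone marks about 1 in 20 sets; 7 were marked. NASH-CH rat 5 gave 4 of them, with 9.39 CPM of Cd9, 29.9 CPM of Lgals3, 5.16 CPM of Itgax and 88.2 CPM of Lyz2, each the highest of its group. The others were 0.0496 CPM of Trem2 in control rat 5, which is a single count, 21.6 CPM of Cd63 in control rat 2 and 15.8 CPM of Lyz2 in NASH rat 4.

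The 2 models differed from each other, by limma-voom in 1 fit with the shared controls, for 3 genes. The log2 difference of NASH-CH from NASH was 3.12 for Trem2, 1.54 for Gpnmb and 1.56 for Lyz2, and each gene was higher in 6 of 6 NASH-CH rats than in every NASH rat. For Lyz2 summed with Lyc2 the difference was 0.84 and was not called. Trem2 passed the filter on low counts only through the NASH-CH group. The 24 weeks of NASH-CH and the 10 weeks of NASH also differ in exposure to CCl4 and in library depth, and these cannot be told apart.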

How the results depend on the processing

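The number of members called was 2 in NASH against control, 5 in NASH-CH against control and 3 in NASH-CH against NASH, and ran from 1 to 3, 4 to 6 and 2 to 4 over the 11 other settings that kept all rats. Over all genes 403, 2192 and 542 were called, and 268 to 1509, 1408 to 5495 and 267 to 2649 over the same settings, where the number of genes tested changed with the filter. In NASH it was 1 with library size only and 1 without a filter on low counts, where Fabp5 was lost, and 1 to 2 with 1 rat left out; NASH-CH gave 5 with every rat left out, and NASH-CH against NASH 3 to 4. With at least 10 counts in every rat Trem2 has no value. DESeq2 called Trem2 in NASH (3.00, adjusted p = 0.0333). Differences near 0 in NASH against control changed sign: Lyz2 (0.023) was -0.0087 with edgeR, -0.012 with DESeq2, -0.0085 with quality weights, -0.0033 with the replicate block, -0.073 to 0.13 with 1 rat left out and -0.48 when summed with Lyc2. With library size only Tyrobp was 0.010, Cd63 0.21 and Ctsd 0.16, where the median of all genes moved to 0.23. Cd63 ranged from -0.070 to 0.085 with 1 rat left out, and Tyrobp in NASH-CH against control from -0.036 (without NASH-CH rat 5) to 0.24. None of these was called. The causes were not tested, except that the sum with Lyc2 adds that gene's own counts.

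Rats of the 3 groups share the numbers 1 to 6, and the correlations of deviations between same-numbered rats were low, from -0.12 to 0.17. Rats of different numbers were not compared, so these values cannot exclude that the numbers pair them. With the replicate block 2, 5 and 4 members were called in the 3 comparisons, the added one being Lgals3 in NASH-CH against NASH (0.71, adjusted p = 0.0123). Low counts of Trem2 limit its level in control and NASH rats.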
